A study of Mus musculus with 6 samples.

Results

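The 10 genes that make and shape melanin described here were measured in mouse RPE/choroid, the retinal pigment epithelium with the vascular layer under it. They are Tyr, Tyrp1, Dct, Pmel, Mlana, Oca2, Slc45a2, Slc24a5, Gpr143 and Mitf, chosen by name as pigment genes that RPE cells and choroidal melanocytes share. All 10 were among the 33924 genes of the table. The tissue came from C57BL/6J mice carrying no added allele or treatment, in 3 young and 3 aged libraries of total RNA depleted of ribosomal RNA, each from a pair of eyes. Young mice were 1 to 2 months old by the labels, whereas the methods of the study name a somewhat older range. Aged mice were 20 to 24 months old by the titles and 22 to 24 by another label. All are labelled male, whereas the methods name both sexes. The value described is the authors' mean normalized count over the 6 libraries. It carries no SD, so no difference between genes could be set against a spread between mice, and no comparison of aged with young mice is made here.

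Melanin is made in melanosomes, organelles related to lysosomes. Tyrosinase starts the pathway from tyrosine, the related enzymes Tyrp1 and Dct act on later intermediates, and Pmel forms the fibrils on which pigment is laid down. Pumps and exchangers set the ions and pH inside the organelle, and Mitf is the transcription factor that drives many of these genes. In the eye the RPE forms its pigment mostly before and around birth, while choroidal pigment cells descend from the neural crest.

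A shared sequence is shown first because it recurs before several of these genes. Mitf and its relatives bind E-boxes, and the extended form TCATGTG, known as the M-box core, was searched on both strands of the window from 250 bases before to 50 bases after each RefSeq start site (GRCm38.p6). It contains the shorter CATGTG. Of the 10 genes, 6 had a promoter in the RefSeq table, and TCATGTG was found for 4 of these 6, Tyr, Tyrp1, Dct and Slc24a5. Counted by gene in the same way, 4.31% of 27025 genes hold it in at least 1 promoter, and counted by promoter 3.77% of 32851 do. The matches are printed along the strand of the gene with 20 bases on either side where the window allows, the motif in capitals, and CACATGA marks a match on the opposite strand.

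Tyr, chr7:87493508-87493554, minus strand: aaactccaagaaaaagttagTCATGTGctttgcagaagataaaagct

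Tyrp1, chr4:80834146-80834192, plus strand: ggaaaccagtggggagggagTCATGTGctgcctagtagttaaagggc

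Dct, chr14:118052371-118052417, minus strand: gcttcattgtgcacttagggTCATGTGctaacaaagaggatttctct

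Dct, chr14:118052452-118052496, minus strand: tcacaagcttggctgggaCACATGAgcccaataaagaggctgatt

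Slc24a5, chr2:125068094-125068140, plus strand: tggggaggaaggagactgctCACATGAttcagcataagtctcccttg

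The first motif base lay at -22 from the start site in Tyr and at -47 in Tyrp1. In Dct there were matches at -151 and -232, on opposite strands, and in Slc24a5 at -13. The 3 enzyme genes thus each hold the motif followed by the bases ct on the gene's own strand. Oca2 held the shorter CATGTG, found for 15.9% of all genes with a promoter and in 14.2% of all promoters, on the opposite strand at -186. None of the 3 Mitf promoters held either form in this window. Promoters of Pmel, Mlana, Slc45a2 and Gpr143 were not analysed here. A match describes letters in a window and no binding was measured.

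The pigment genes were among the most abundant transcripts of the tissue. For comparison between genes, each level was divided by the length of the gene's longest annotated transcript, coding or not. Shortest coding transcripts are also used below, but those of Tyrp1, Pmel, Tyr, Oca2 and Mitf are too short for the whole protein. The authors' methods start from TPM, a unit already divided by length, and whether their normalized counts still grow with length is not given there, so values per kilobase hold only if they do. Over 11108 coding genes of at least 100, the level and the length of the longest transcript had a Spearman correlation of 0.25, and the level per kilobase and that length one of -0.25, which does not settle it. Per kilobase, the 10 genes ran from 664.5 to 27072 normalized counts with a median of 2389, which is 51.2 times the median of 46.66 over the 22827 genes listed above 0 with a length. All 10 lay in the highest 10% of those genes, 8 among the 1000 highest and 4 among the 100 highest. Without division by length, the median pigment gene stood at 79.4 times the median of all genes above 0, 9 of the 10 lay in the highest 10% of the 26681 genes above 0, and Gpr143, at rank 4401, stood above 83.51% of them. Genes with no matched length, among them the abundant 7SK, have no rank per kilobase. Together the 10 pigment genes held 1.29% of the summed normalized count of the table.

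**Figure D1:**
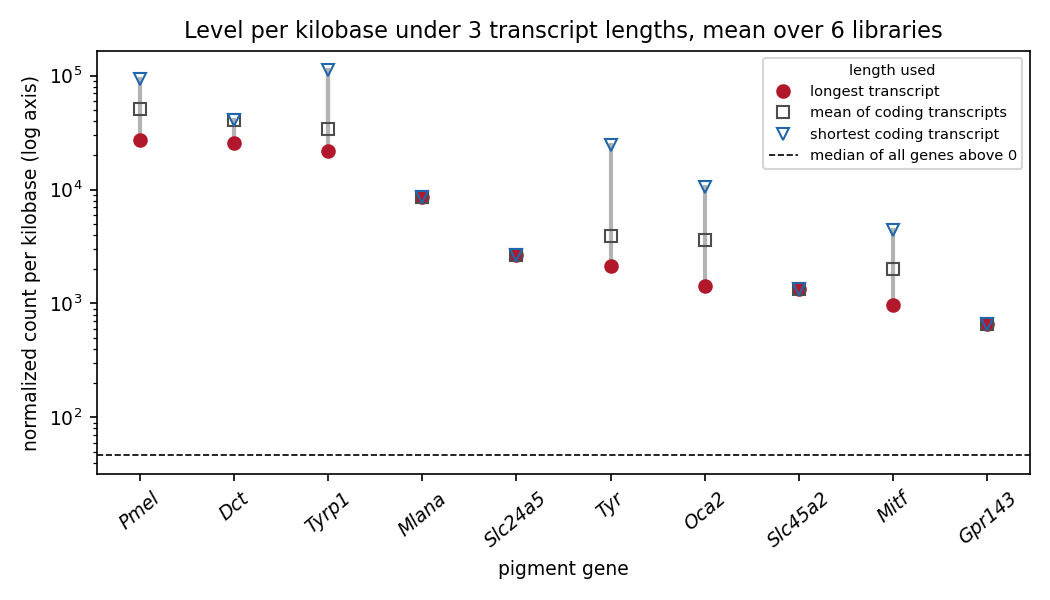
Level of each pigment gene as normalized count per kilobase (log axis), from the authors' mean over 6 libraries, with 1 point for each of 3 transcript lengths and a grey line over their range; the dashed line is the median of all genes above 0 with a length, 46.66. Pmel, Dct and Tyrp1 stand highest under each length, and Gpr143 lowest with 664.5. The shortest coding transcripts of Tyrp1, Pmel, Tyr, Oca2 and Mitf are too short for the whole protein.

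The enzymes came first by share. Dct, Tyrp1 and Tyr held 65.4% of the summed level of the 10 genes. Dct, or dopachrome tautomerase, which converts dopachrome to its carboxylated indole, had a mean normalized count of 89145, rank 8 in the whole table, and 25772 per kilobase. The gene lies on chromosome 14 at 118012790 to 118052244 (GRCm38) and codes for 517 residues. Tyrp1, which stabilizes tyrosinase and acts late in the making of brown-black pigment, had a mean of 59379 and 21830 per kilobase. It lies on chromosome 4 at 80834123 to 80851719. The ratio of Dct to Tyrp1 was 1.18 per kilobase with the longest transcripts and 0.361 with the shortest coding ones. The 0.361 rests on a Tyrp1 transcript of 529 bases, too short to code for the 537 residues of the protein. The longest Dct transcript, of 3459 bases, is not coding. Over its only coding transcript, of 2202 bases, Dct had 40484 per kilobase, and over the mean of its coding transcripts Tyrp1 had 34298.

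Tyr, which encodes the rate-limiting enzyme tyrosinase, stood well below its relatives. Its mean normalized count was 12784, or 2116 per kilobase, rank 390 of the genes with a length, and the ratio of Dct to Tyr was 12.2 per kilobase and 6.97 without division by length. Tyr lies on chromosome 7 at 87424771 to 87493512 in 5 exons. Its longest transcript has 6042 bases and its shortest coding transcript 516, and with the shortest lengths the ratio of Dct to Tyr was 1.63. A transcript of 516 bases is too short for the 533 residues of Tyr, so that ratio sets a fragment against a full Dct transcript. Which transcripts were present cannot be read from the table, which gives 1 value per gene. Aligned over their whole length, Tyr and Tyrp1 were 42.8% identical in residues, Tyr and Dct 43.0%, and Tyrp1 and Dct 49.3%. At the level of transcripts they were distinct, since at least 0.968 of the 31-base words of each enzyme gene occur in no other gene.

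Genes for the melanosome matrix and its maturation held 26.6% of the summed level. Pmel, the fibril protein of 626 residues, had a mean normalized count of 57664 and 27072 per kilobase, rank 13 of the genes with a length and the highest of the 10 by the longest transcript. The longest Dct transcript is not coding, and over its only coding one Dct had 40484, above that value of Pmel. By the shortest coding transcript Tyrp1 was the highest, with 112247 against 92707 for Pmel, but these lengths, 529 and 622 bases, are too short for the whole proteins. Pmel lies on chromosome 10 at 128704195 to 128720238, and its annotated span overlaps Cdk2 and Dgka on the other strand. Of its words, 0.965 occur in no other gene, and Dgka shares most of the remainder. Mlana, a small membrane protein of 113 residues that associates with Pmel, had a mean of 7838. Because its longest transcript is only 906 bases, its level per kilobase was 8651, rank 54 of the genes with a length. This was the fourth of the group by the longest transcript. It was the sixth by the shortest coding one, where Tyrp1, Pmel, Tyr and Oca2 were divided by the length of fragments. Mlana lies on chromosome 19 at 29697824 to 29708634, and all of its words are its own.

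**Figure D2:**
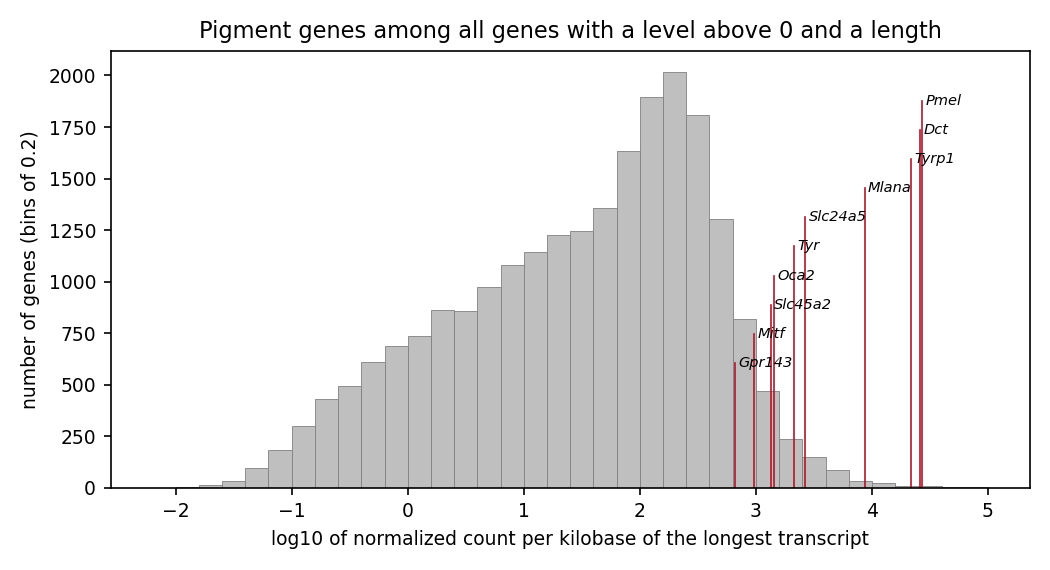
Histogram of genes (vertical axis, number of genes in bins of 0.2) by log10 of the normalized count per kilobase of the longest transcript (horizontal axis), with red lines at the 10 pigment genes; line heights differ only to keep the names apart. All 10 lie to the right of the bulk, and 4 of them, Mlana, Tyrp1, Dct and Pmel, lie at its far end.

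Transport genes held 5.70% of the summed level. Slc24a5, a potassium-dependent sodium and calcium exchanger, had a mean normalized count of 5203 and 2663 per kilobase. It lies on chromosome 2 at 125068124 to 125088677 and overlaps Myef2 on the other strand. Only 0.598 of its words, read without regard to strand, occur in no other gene, the lowest share of the 10, and 866 of 2326 are shared with Myef2. The libraries were stranded, but whether the quantification used strand is not given in the sources used here. Oca2, the pink-eyed dilution protein that takes part in chloride flow and pH control, had a mean of 4852 and 1438 per kilobase. It spans 296759 bases of chromosome 7, from 56239760 to 56536518, the longest gene of the group, with 24 exons in the longest coding transcript. Slc45a2, a membrane transporter tied to proton and sugar movement, had a mean of 3993 and 1339 per kilobase, on chromosome 15 at 11000721 to 11029233. Oca2 and Slc45a2 differed by a ratio of 1.07 per kilobase with the longest transcript and of 7.95 with the shortest, since Slc45a2 has a single annotated transcript and Oca2 has coding ones down to 456 bases. That length is too short for the 833 residues of Oca2.

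Mitf, the transcription factor, had a mean normalized count of 4729 and 968.9 per kilobase. The gene covers 214298 bases of chromosome 6, from 97807052 to 98021349, and has 6 coding transcripts with 6 different starts. Different first exons are known to serve the RPE and the neural crest melanocyte, but the value sums them and cannot show their shares.

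Gpr143, the melanosomal receptor that controls organelle size and number, was the lowest of the 10 on both scales. Its mean normalized count was 1054 and its level 664.5 per kilobase, rank 1724, still above that of 92.45% of genes with a length. It is on chromosome X at 152781921 to 152808646. The level per kilobase of Pmel was 40.7 times that of Gpr143 with the longest transcripts and 139.5 times with the shortest coding ones, and its undivided level was 54.7 times. The 139.5 rests on a Pmel transcript of 622 bases, too short for the whole protein.

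The wider machinery of the melanosome was expressed at lower levels. A list of 59 further genes was compared, of which 58 were found, 9 of them under an older symbol, and Asip was not analysed here. Their median was 298.9 per kilobase, 51 of 58 exceeded the median of genes with a length, 14 exceeded Gpr143 and 2 exceeded the median of the pigment genes. None reached Tyrp1. Without division by length, 25 exceeded Gpr143 and 4 the median of the pigment genes. By count, 51 of 58 (87.9%) had a mean normalized count of at least 100, against 48.2% of all genes above 0.

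Among glycoproteins and partners of the melanosome (6 genes, median 600.1 per kilobase), Gpnmb, a relative of Pmel that macrophages also express, was the highest with 9627. Mlph, the adaptor between Rab27a and myosin, had 914.3. Mc1r, the receptor for melanocyte-stimulating hormone, was the lowest with 18.9, below the median of genes with a length. Transporters other than the members (8 genes, median 171.0) were led by Atp6ap2, a proton pump subunit, with 2476. Mcoln3, a cation channel, had 837.0, and Slc24a4, a relative of Slc24a5, had 39.29.

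Cargo-sorting complexes deliver enzymes to the maturing melanosome. The 8 BLOC-1 genes had a median of 198.1 per kilobase, with Snapin at 684.1, Dtnbp1 at 496.3 and Bloc1s3 at 78.14. The 5 genes of BLOC-2 and BLOC-3 had a median of 156.6, from Hps1 at 61.72 to Hps3 at 501.8, with Hps5 second at 286.4. The 5 AP-3 genes had a median of 307.6, from Ap3m1 at 104.5 to Ap3d1 at 651.6, with Ap3b1 second at 366.5. Of these 18 genes, 1 exceeded Gpr143 per kilobase. Without division by length, Ap3d1 (3131), Hps3 (2045), Ap3b1 (1474), Hps5 (1418) and Snapin (1319) exceeded Gpr143 (1054), and the others did not.

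Rab and motor genes of melanosome traffic were the highest of the pathway lists by median, with 704.7 per kilobase over 10 genes. Rab27a, the GTPase that tethers melanosomes, had 1784 and Myo5a, its motor, had 1377. Rab32, which acts in sorting, was the lowest with 293.2. Transcription factors other than Mitf (11 genes, median 159.4) were led by Otx2, which specifies the RPE, with 1485. Pax6 had 432.5 and Tfap2a, under its older symbol Tcfap2a, had 20.79. Of the signals to pigment cells (5 genes, median 150.4), the highest were Edn3, with 2137, and Kitl, the ligand of Kit, with 790.8, while Pomc, which encodes the melanocyte-stimulating hormone, had 14.06.

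**Figure D3:**
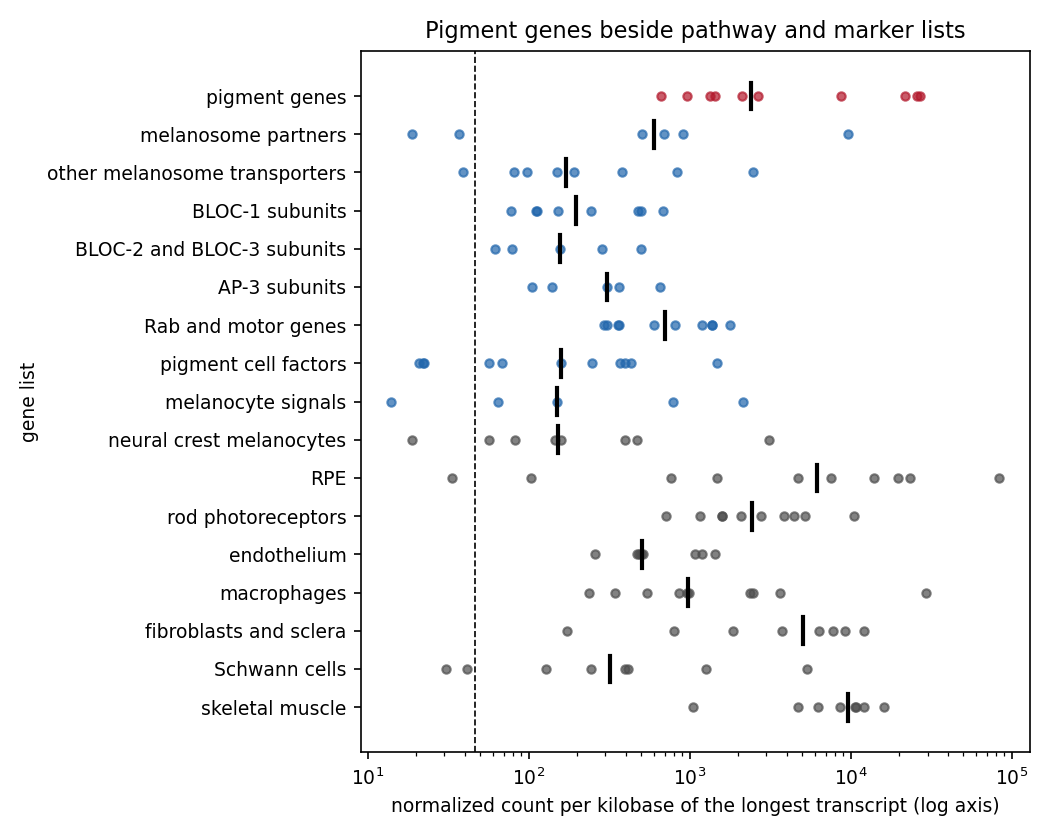
Normalized count per kilobase of the longest transcript (horizontal log axis) for each gene (point) of the pigment genes in red, 8 pathway lists in blue and 8 cell type marker lists in grey; black bars are medians and the dashed line is the median of all genes above 0 with a length, 46.66. The median of the pigment genes, 2389, lies above that of each pathway list, and the marker list medians run from 152.1 to 9597.

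The label RPE/choroid was checked against marker genes. All 10 RPE markers were listed above 0, as were 26681 of all 33924 genes, so that count alone says little. Their median was 6135 per kilobase, against 46.66 for all genes above 0 with a length. Ttr, the retinol carrier transthyretin, had 83745, Rpe65, the retinoid isomerase, had 23481, and Best1, a chloride channel of the RPE, was the lowest with 33.56, below the median of genes with a length. Markers of the neural crest melanocyte lineage (8 of 8 above 0, beside 26681 of 33924 genes, median 152.1) included Ednrb, the endothelin receptor, at 3095 and Mc1r at 18.9. Several of these are also expressed by Schwann cells or vessels. How the pigment transcripts were divided between RPE cells and melanocytes was not tested, and in such a tissue fewer cells of a type and less RNA per cell cannot be told apart.

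Genes of other cell types and neighbouring tissues were also present. Skeletal muscle markers had a median of 9597 per kilobase over 8 genes, led by Mylpf (16179) and Acta1 (12062), with Myh2 the lowest at 1049. Fibroblast and sclera markers had a median of 5073, from Kera at 174.2 to Dcn at 9256 and Col1a2 at 12072. Rod photoreceptor markers had a median of 2430 over 10 genes, with Gnat1 at 5239 and Cnga1, the lowest, at 716.7. The macrophage median was 979.3, with Lyz2 at 29309, C1qa at 3633 and Itgam at 235.6. Endothelial markers had a median of 507.2, with Egfl7 at 1432, Plvap at 1187 and Cdh5 at 256.6. Schwann cell markers had one of 322.2, with S100b at 5362, Pmp22 at 1272 and Ncmap, under the symbol A330049M08Rik, at 30.79. The share of the summed normalized count was 1.60% for RPE markers, 0.675% for muscle, 1.10% for fibroblasts and sclera and 0.596% for rods, beside the 1.29% of the pigment genes.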

How the data were processed

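Total RNA of RPE/choroid was sequenced by the authors after ribosomal RNA depletion with a stranded kit, and reads were trimmed with BBDuk, aligned with STAR to Ensembl transcripts of GRCm38 and quantified with Sailfish as TPM, a share of transcripts corrected for length, which the authors then turned into normalized counts by total count. The authors deposited 1 table of their DESeq2 comparison, whose baseMean is a normalized signal, the mean count over 6 libraries after their scaling. Whether length had already been divided out of it is not given in the sources used here. Its sum, 19192071, is not that of a TPM column, but that does not settle the point. Its other columns hold the authors' own comparison of the ages (log2 fold change, standard error, statistic, p and adjusted p) and were not used. It held 0 columns that name a sample, so depth per library is unknown and no test, SD, interval or floor was computed. The planned test between ages was therefore not run.

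Gene lengths, positions and transcripts came from GENCODE M21 (GRCm38, a later release than the authors' annotation), matched by symbol for 28514 genes (84.1%). Analyses used Python 3.11.15. Ranks and the motif search were tested on simulated data. Words of 31 bases were counted over all transcripts, both strands. Proteins were translated from GENCODE transcripts and aligned globally. Older symbols were matched through RefSeq synonyms. For each list the 2 highest genes and the lowest were named, except genes that are not reported here. The members and lists were chosen with earlier results of these data known.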

Additional observations from a re-analysis of the deposited data

How the results depend on the processing

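No paired analysis was possible because only a mean over the 6 libraries was analysed, and for that reason the leave-one-out fits, other normalizations and filters planned for a test between ages were not run. A value was taken as moved when it changed by more than 1.5 times. The share of the summed level held by the pigment genes went from 1.29% to 0.882% without the 10 most abundant genes, which include Dct. The number of pathway genes past the level limit was 51 at 100 and 58 at 10. The number of pigment genes with the motif was 4 for TCATGTG and 5 for CATGTG. By this rule the share did not move. The count of pathway genes could not pass the 58 found, nor that of motif genes the 6 with a promoter. Neither limit lies more than 1.5 times above the first count, so these counts say nothing about stability. In a comparison without division by length, chosen after seeing the data, the fold of the median pigment gene over that of all genes went from 51.2 to 79.4, the pathway genes above Gpr143 from 14 to 25 and those above the median pigment gene from 2 to 4, while the pigment genes in the highest 10% went from 10 to 9 and the pathway genes above the median of all genes from 51 to 53. Ranking among genes of at least 10 or among all genes rescaled the percent of genes at or above each pigment gene by the same factor for all 10, since all lie above both limits, and so says nothing about stability. The level per kilobase moved in 12 of 20 values when the mean or shortest coding transcript replaced the longest, each upwards, for Dct, Tyrp1, Pmel, Tyr, Oca2 and Mitf. Pmel, Dct and Tyrp1 held the first 3 places and Gpr143 the last under all 3 lengths, but Tyrp1 was first and Pmel second with the shortest. The shortest lengths of Tyrp1, Pmel, Tyr, Oca2 and Mitf are too short for the whole protein. Places by the shortest length thus compare fragments with full transcripts. With the longest, mean and shortest length in turn, Mlana took place 4, 4 and 6, Slc24a5 place 5, 7 and 8, Tyr place 6, 5 and 4, Oca2 place 7, 6 and 5, Slc45a2 place 8, 9 and 9, and Mitf place 9, 8 and 7.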
